A study of Mus musculus with 32 samples.

Results

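Rag1-high and Rag1-low lymphomas are classes of tumours from Eµ-myc mice, divided by the measured level of a single transcript. The classes were chosen by the log2 value of the only Rag1 probe set, Rag1-high at 7.5 or more and Rag1-low below it, which gave 16 tumours in each class out of 32 in all. Every animal carried the same Eµ-myc transgene, in which the immunoglobulin heavy chain enhancer drives Myc in cells of the B lineage. No control tissue, other genotype or treatment was among the samples, and the labels do not give the animals' age, strain or sex. Each tumour was read on 1 Affymetrix Mouse430_2 array, with RNA taken either from frozen lymphoma tissue or from pelleted lymphoma cells. Neither the kind of material nor the mouse behind each tumour is labelled, so the p-values measure the spread between these arrays. Each tumour goes by the number in its title (1 to 32).

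Rag1 and Rag2 encode the recombinase that cuts immunoglobulin and T cell receptor genes at recombination signal sequences, the first step of V(D)J recombination. In the B lineage both genes are on in pro-B cells, are shut off while pre-B cells divide, come on again when light chain genes are rearranged, and are silent in mature B cells. Tumours of the Eµ-myc model are known to arise from precursor and from immature B cells. The genes lie next to each other and are transcribed towards each other, and another gene of the locus, Iftap (earlier name NWC), overlaps Rag2 in the RefSeq gene table.

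The results turn on the Rag locus and on Tmem255a, so the 250 bases before their annotated starts are shown, from RefSeq (build GRCm38.p6), 5′ to 3′ on the strand of the gene. Capitals mark the E-box CANNTG, the core recognised by E proteins such as Tcf3, which are known activators of Rag transcription. Iftap has 2 annotated starts, and both windows are given.
Rag1, chr2:101649533-101649782, minus strand: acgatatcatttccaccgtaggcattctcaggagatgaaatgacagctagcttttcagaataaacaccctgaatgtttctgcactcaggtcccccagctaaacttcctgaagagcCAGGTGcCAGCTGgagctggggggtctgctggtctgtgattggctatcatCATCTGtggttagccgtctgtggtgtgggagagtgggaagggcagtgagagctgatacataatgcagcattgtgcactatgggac
Rag2, chr2:101624462-101624711, plus strand: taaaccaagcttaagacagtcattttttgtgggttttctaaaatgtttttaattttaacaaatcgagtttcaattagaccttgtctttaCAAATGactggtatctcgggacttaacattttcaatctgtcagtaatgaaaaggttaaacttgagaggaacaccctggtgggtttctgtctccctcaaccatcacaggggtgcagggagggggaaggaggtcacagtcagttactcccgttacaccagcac
Iftap, chr2:101629032-101629281, minus strand: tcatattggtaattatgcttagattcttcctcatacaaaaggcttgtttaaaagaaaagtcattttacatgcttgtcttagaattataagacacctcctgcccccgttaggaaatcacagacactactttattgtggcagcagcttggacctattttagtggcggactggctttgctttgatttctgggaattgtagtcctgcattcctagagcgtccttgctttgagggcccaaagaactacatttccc
Iftap, second start, chr2:101621047-101621296, minus strand: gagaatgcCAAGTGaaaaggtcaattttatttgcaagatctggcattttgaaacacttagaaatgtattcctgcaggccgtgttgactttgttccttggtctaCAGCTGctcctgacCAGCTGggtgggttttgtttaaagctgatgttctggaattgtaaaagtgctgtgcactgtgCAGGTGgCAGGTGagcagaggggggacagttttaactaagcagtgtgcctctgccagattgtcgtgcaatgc
Tmem255a, chrX:38252482-38252731, minus strand: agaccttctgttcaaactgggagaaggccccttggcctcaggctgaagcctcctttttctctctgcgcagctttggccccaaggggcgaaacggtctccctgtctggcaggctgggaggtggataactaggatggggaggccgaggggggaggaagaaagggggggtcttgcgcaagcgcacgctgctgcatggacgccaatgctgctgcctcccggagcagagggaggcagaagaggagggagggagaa
The Rag1 window held 3 E-boxes, the Rag2 window 1, the Iftap windows 0 and 5, and the Tmem255a window 0. CANNTG reads the same on both strands, and 66.2% of 32851 promoter windows of this length held at least 1, so its presence is common. The more specific form CAGGTG was in 17.2% of all windows and CAGCTG in 13%. These forms are part of the E-box count and were searched on both strands. The Rag1 window held 1 of each and the second Iftap window 2 of each, while the Rag2, first Iftap and Tmem255a windows held none. A match is a description of letters and shows no binding.

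Rag1 itself set the classes and was not tested. Its log2 level ran from 7.69 through a median of 10.17 to 12.02 in the Rag1-high tumours, and from 3.38 through a median of 4.86 to 7.36 in the Rag1-low tumours. The levels did not fall into separate clusters. The widest step between neighbouring tumours was 0.93, from 3.91 to 4.83 inside the Rag1-low class, whereas the step at the threshold was 0.34. Tumour 14 (7.69) and tumour 4 (7.90) lay just above the threshold, and tumour 19 (7.36) and tumour 5 (7.06) just below it. In 10 of the Rag1-low tumours Rag1 was under 5.78, the median of all probe set means on these arrays, so they lay among the dimmer probe sets.

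The array medians lay between 5.72 and 5.80, and 0 pairs of arrays held identical values. Salivary gland transcripts, marked by Bpifa2 at 9 or more, were present in 5 Rag1-high and 6 Rag1-low tumours. Xist was at 9 or more in 11 Rag1-high and 7 Rag1-low tumours. The 3′ minus 5′ difference of control transcripts, a sign of RNA degradation, had a median of 0.38 in the Rag1-high and 0.41 in the Rag1-low tumours. The B lineage label was checked on Cd79a and Cd79b, whose products carry the signal of the B cell receptor, and on Pax5, Ebf1 and Blk. Cd79a was between 9.37 and 11.63 over all 32 tumours, Cd79b between 11.11 and 12.63 and Pax5 between 7.16 and 9.04, and none of the 5 markers differed between the classes after adjustment.

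Of 11227 genes tested across all tumours other than Rag1, 9 (0.0802%) were higher in the Rag1-high class and 0 (0%) were lower at an adjusted p under 0.05 (limma with Benjamini-Hochberg adjustment). At an unadjusted p under 0.05, 650 (5.79%) were higher and 442 (3.94%) were lower. The rank-sum test on the same values called 7 higher and 1 lower (Lnx2), with 5 of the 9 among them, and A630023P12Rik, Pinlyp, Sike1 and Stam had adjusted p-values up to 0.0745 in it. The 9 genes were Tmem255a, Rag2, Iftap, A630023P12Rik, Tmem163, Pinlyp, Card6, Sike1 and Stam. The recombinase partner and its overlapping neighbour were thus among them, while no surrogate light chain gene, early B cell receptor or mature B cell gene was. Rag2, Iftap, A630023P12Rik and Pinlyp had class means of 5.32, 5.63, 5.45 and 5.55 in the Rag1-low tumours, under the filter level of 5.78, and so entered the test through their level in the Rag1-high tumours. With no filter, 6 of the 9 calls remained (Rag2, Tmem255a, Iftap, A630023P12Rik, Tmem163 and Stam), and Card6, Sike1 and Pinlyp had adjusted p-values up to 0.0818 in limma.

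Rag2, the partner of Rag1 in the recombinase, ran from 5.86 through a median of 7.38 to 9.63 in the Rag1-high tumours. In the Rag1-low tumours it ran from 4.39 through 5.35 to 6.43. Of the Rag1-high tumours 11 were above every Rag1-low tumour, and 13 Rag1-low tumours were below every Rag1-high tumour. The Rag1-high tumours inside the overlap were tumours 4, 10 and 7, which were also among the lowest of that class in Rag1, and tumours 18 and 21, with Rag1 at 10.33 and 9.51. Tumour 19, the Rag1-low tumour nearest the threshold, was the highest of its class in Rag2. The difference of means was 1.98 ± 0.305 (SE, n = 16 and 16, 95% interval 1.36 to 2.61), with an adjusted p of 0.00227 in limma. No fold is given for Rag2 or Iftap, since both lay among the dimmer probe sets in most Rag1-low tumours. A two-sided permutation test of the difference gave p = 1e-05, the smallest that 100000 resamples can give. Rag2 was not used to form the classes. In bulk tissue, fewer cells that express a gene and less of its RNA per cell cannot be told apart, here and in every result that follows.

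**Figure D1:**
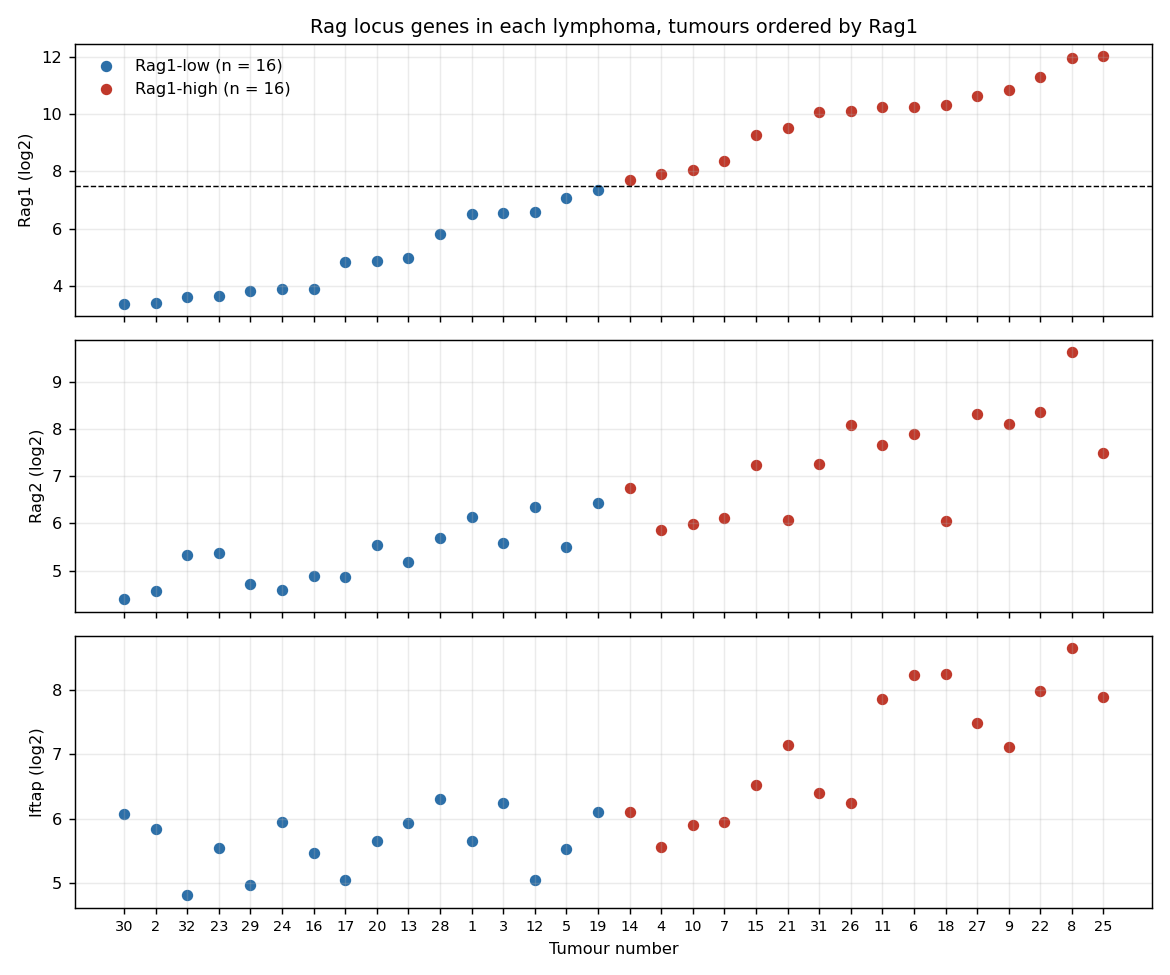
Log2 level of Rag1, Rag2 and Iftap in each of the 32 lymphomas, ordered from left to right by Rag1; blue points are the 16 Rag1-low and red points the 16 Rag1-high tumours, and the dashed line is the threshold of 7.5. Rag1 climbed without a break from 3.38 to 12.02, Rag2 climbed with it from 4.39 in tumour 30 to 9.63 in tumour 8, and Iftap stayed between 4.80 and 6.31 across the Rag1-low tumours.

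Rag2 also followed Rag1 inside each class, which the division into classes did not fix. Among the 16 Rag1-high tumours r was 0.76 (permutation p = 0.00075, adjusted p = 0.0045; rho = 0.74, p = 0.0015), and 0.75 without the 2 tumours farthest from the median Rag1 level. Among the 16 Rag1-low tumours r was 0.83 (permutation p = 7e-05, adjusted p = 0.00084; rho = 0.83, p = 0.0002), and 0.83 without the far tumours. Both relations are from a family of 12, over 6 genes in each class, with two-sided tests of 100000 resamples. Without tumours 2 and 24 the r in the Rag1-low class was 0.80 (permutation test, adjusted p = 0.0045, n = 14). The other 10 relations did not pass. Ms4a1, which encodes the mature B cell antigen CD20, came nearest, with r = -0.55 among the Rag1-high tumours (permutation p = 0.0262, adjusted p = 0.105; rho = -0.61, p = 0.0136; -0.48 without the far tumours). Leaving out tumour 31 alone took it past the threshold (r = -0.67, permutation test, adjusted p = 0.0264, n = 15).

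Iftap, which encodes a protein tied to intraflagellar transport was also higher. It ran from 5.56 through a median of 7.13 to 8.66 in the Rag1-high tumours and from 4.80 through 5.65 to 6.31 in the Rag1-low tumours. In 11 Rag1-high tumours it was above all of the Rag1-low class, and tumour 4 was again the lowest of the Rag1-high class. The difference was 1.45 ± 0.266 (adjusted p = 0.0169 in limma). It rests on 1 of 4 Iftap probe sets, since the other 3 were dim and differed by 0.11, -0.01 and 0.18. Within the Rag1-high tumours Iftap followed Rag1 (r = 0.83, permutation p = 0.00012, adjusted p = 0.00192; rho = 0.83, p = 0.0001; 0.78 without the far tumours). Within the Rag1-low tumours it did not pass (r = 0.24, permutation p = 0.372, adjusted p = 0.582; rho = 0.24, p = 0.379; 0.18 without the far tumours). These values belong to a family of 16 relations, of the 8 called genes other than Rag2 in each class, added after the calls were known. Whether the 2 values of r differ was not tested.

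The other genes around the locus differed less. Traf6, an adaptor of Toll-like and CD40 signalling and the nearest tested gene on the far side of Rag1, ran from 7.45 through 7.96 to 9.29 in the Rag1-high and from 7.19 through 7.67 to 9.22 in the Rag1-low tumours. These ranges overlapped almost fully, and the difference of 0.40 ± 0.159 had an unadjusted p of 0.0167 and an adjusted p of 0.394 in limma. Commd9 and Ldlrad3 on that side differed by 0.07 and 0.17, and Api5, the third tested gene on the side of Rag2, by 0.06, with adjusted p-values of 0.770 to 0.848 in limma.

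Tmem255a, an X-linked gene for a membrane protein of little-known function, showed the largest difference of the 9. It ran from 7.36 through a median of 9.26 to 11.42 in the Rag1-high tumours and from 3.87 through 5.92 to 9.05 in the Rag1-low tumours. All 16 Rag1-high tumours were above the median of the Rag1-low tumours, 8 were above all of them, and 11 Rag1-low tumours were below every Rag1-high tumour. The difference was 3.15 ± 0.498 (adjusted p = 0.00227 in limma, 8.89-fold). All 4 of its probe sets were higher in the Rag1-high class, by 0.82 to 3.15. The gene is on the X chromosome, and Xist was high in more Rag1-high tumours. In the fit of all genes with Xist as a factor, the Tmem255a difference was 3.22 ± 0.521 (adjusted p = 0.00585 in limma). Whether the animals' sex bears on the difference was not tested. Within the classes its relation to Rag1 did not pass (r = 0.27, rho = 0.28, permutation test, adjusted p = 0.582 among the Rag1-high tumours, and r = 0.43, rho = 0.29, adjusted p = 0.382 among the Rag1-low tumours).

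A630023P12Rik, a RIKEN transcript on chromosome 5, ran from 4.75 through 6.88 to 8.56 in the Rag1-high and from 4.77 through 5.21 to 6.55 in the Rag1-low tumours. Of the Rag1-high tumours 10 were above the whole Rag1-low class, but tumour 4 was below all of it. The difference was 1.35 ± 0.250 (adjusted p = 0.0169 in limma). Tmem163, a membrane protein of vesicles that carries zinc, ran from 6.40 through 6.84 to 8.03 in the Rag1-high and from 4.73 through 5.81 to 7.40 in the Rag1-low tumours. It was set apart from below, with 13 Rag1-low tumours under every Rag1-high tumour and 3 Rag1-high tumours over every Rag1-low tumour. Its difference was 1.12 ± 0.214 (adjusted p = 0.0191 in limma). Tumour 24 was the highest Rag1-low tumour in both of these genes.

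The other 4 calls were smaller. Pinlyp, a relative of phospholipase inhibitors, ran from 5.41 through 6.46 to 8.20 against 4.82 through 5.60 to 6.32, a difference of 0.97 ± 0.203 (adjusted p = 0.0485 in limma). Card6, a caspase recruitment domain protein tied to NF-kB signalling, ran from 8.88 through 9.33 to 10.24 in the Rag1-high and from 7.19 through 8.75 to 9.26 in the Rag1-low tumours. The classes overlapped between 8.88 and 9.26, and the difference was 0.73 ± 0.149 (adjusted p = 0.0396 in limma). Sike1, which restrains the kinases Ikbke and Tbk1, ran from 7.68 through 8.36 to 8.89 against 7.07 through 7.72 to 8.44, a difference of 0.60 ± 0.123 (adjusted p = 0.0434 in limma). Stam, an adaptor that sorts receptors in endosomes, ran from 7.88 through 8.18 to 8.38 against 7.65 through 7.85 to 8.16, a difference of 0.30 ± 0.0574 (adjusted p = 0.0191 in limma). Of these 4 genes Card6 also followed Rag1 inside the Rag1-high class (r = 0.65, permutation p = 0.006, adjusted p = 0.048; rho = 0.69, p = 0.0038; 0.60 without the far tumours), and not in the Rag1-low class (r = 0.22, rho = -0.05, permutation test, adjusted p = 0.582). Tumour 8, next to the highest in Rag1, was the highest of all 32 in Rag2, Tmem255a, Iftap, A630023P12Rik, Card6 and Sike1.

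**Figure D2:**
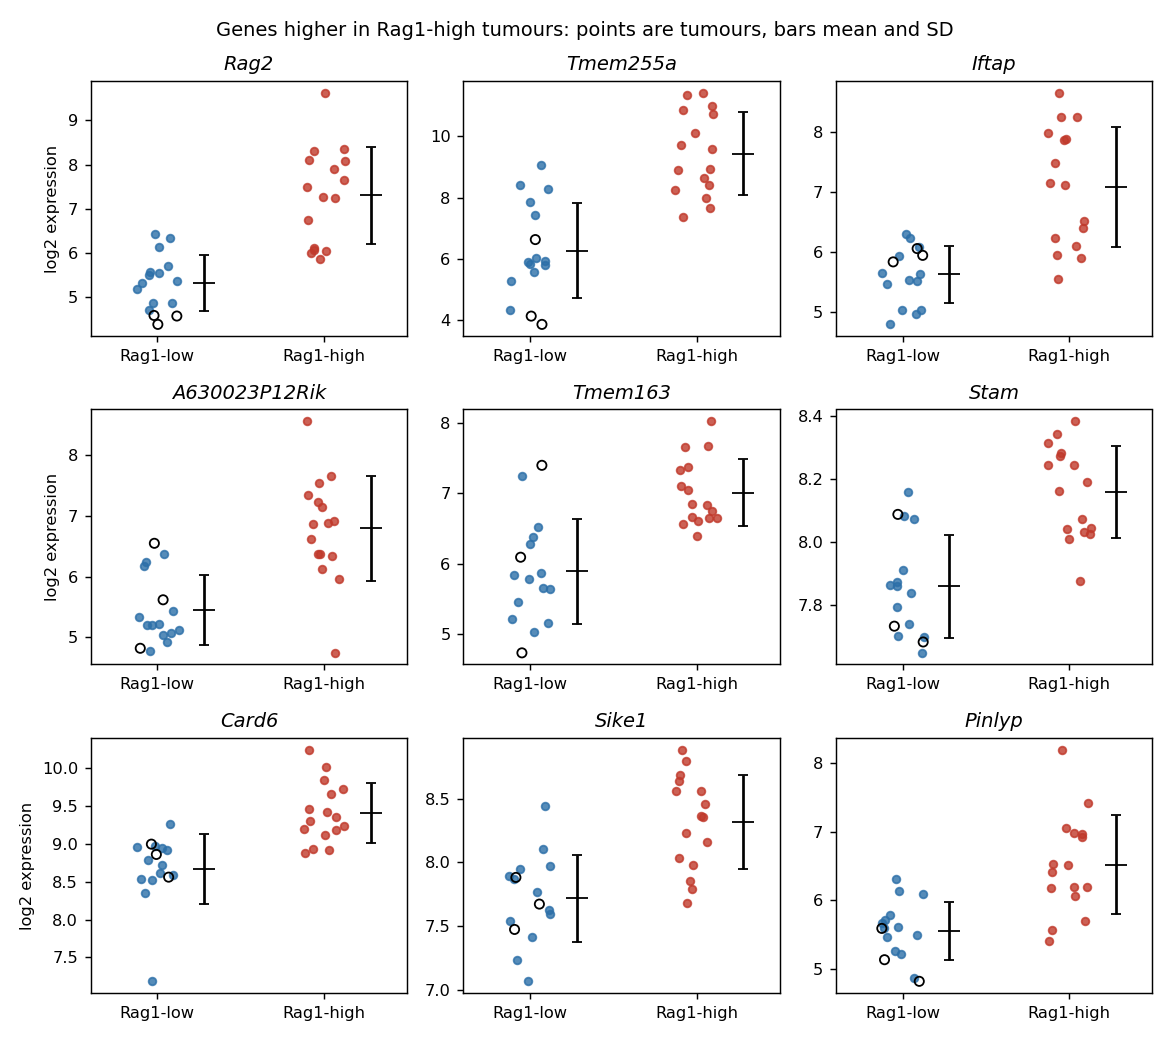
Log2 level of the 9 called genes in the 16 Rag1-low (blue) and 16 Rag1-high (red) tumours; each point is a tumour, open black circles are tumours 2, 24 and 30, and bars show the mean and SD of the class. Rag2 had 11 and Stam 9 Rag1-high tumours above the whole Rag1-low class, whereas Tmem163 had 3.

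Tumours 2 and 24, both Rag1-low, are rich in T cell transcripts, and the comparison was repeated without them. All 9 tested T cell genes had a lower mean in the Rag1-high class, where 5835 of all 11227 genes tested had. Of the 9, 1 (Thy1) had an unadjusted p under 0.05. The mean level of the list ran from 6.34 to 8.43 in the Rag1-high and from 6.17 to 9.78 in the Rag1-low tumours, with tumours 24 and 2 at the top. Without this pair 18 genes (0.16%) were higher and 4 (0.0356%) lower, with 6.49% higher and 5.51% lower at an unadjusted p under 0.05, and 8 of the 9 calls above remained, all but Pinlyp (adjusted p = 0.0815 in limma). The Rag2 difference was then 1.88 ± 0.317 (adjusted p = 0.00679 in limma), that of Tmem255a 2.83 ± 0.480 (adjusted p = 0.00679) and that of Iftap 1.49 ± 0.283 (adjusted p = 0.0242).

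Another 14 genes passed without tumours 2 and 24. Higher in the Rag1-high class were Trim34a (1.03 ± 0.224) and Trim30a (0.88 ± 0.192), both interferon-inducible TRIM family genes, Armc3 (0.94 ± 0.205), Herc3 (0.89 ± 0.185), the repressor gene Etv3 (0.49 ± 0.108), the semaphorin receptor gene Plxna1 (0.70 ± 0.145), Csgalnact2 (0.66 ± 0.141), Diaph2 (0.64 ± 0.135), Cep89 (0.37 ± 0.0788) and Phxr4 (0.85 ± 0.169). Lower were Egfl6 (-2.29 ± 0.498), a secreted matrix protein, Rtl5 (-1.23 ± 0.265), the mitochondrial factor gene Cmc2 (-0.53 ± 0.110) and the ubiquitin ligase gene Lnx2 (-0.35 ± 0.0739). Over all 32 tumours Egfl6 had a mean of 5.08 in the Rag1-high class and Armc3 a mean of 5.67 in the Rag1-low class. Both means are under the filter level of 5.78, so each gene entered the test through its level in the other class. Over all 32 tumours the same 14 genes differed in the same direction, with adjusted p-values of 0.0517 for Armc3 to 0.590 for Herc3 in limma. Trim34a reached 10.64 and Trim30a 9.97 in tumour 24, each the highest of the Rag1-low class.

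Tumours 2, 24 and 30, all Rag1-low, had the 3 highest mean scores for T cell, macrophage and stroma markers. Without tumours 2, 24 and 30, a setting chosen after the data were seen, 44 genes (0.392%) were higher and 28 (0.249%) lower, with all 9 calls among them. Among the added lower genes were Fanci (-0.40 ± 0.0735), Fen1 (-0.38 ± 0.0786), Cdc6 (-0.38 ± 0.0822) and Cdc45 (-0.37 ± 0.0886). Among the added higher genes were Pik3ip1, an inhibitor of PI3 kinase (1.02 ± 0.239), the antiproliferative gene Btg1 (0.92 ± 0.215), Txnip (0.45 ± 0.107), which restrains glucose uptake, and the NF-kB subunit gene Relb (0.77 ± 0.188). Over all 32 tumours these 8 genes differed by -0.26, -0.29, -0.13, -0.23, 0.87, 0.68, 0.27 and 0.40 in the same order, and none passed (adjusted p from 0.217 to 0.851 in limma). These 8 genes were chosen for naming after their values were seen, and they are not the largest added differences. Among the other added genes were Pard6g (-1.06 ± 0.258), Hspa2 (-0.85 ± 0.166) and Zfp52 (1.30 ± 0.315).

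**Figure D3:**
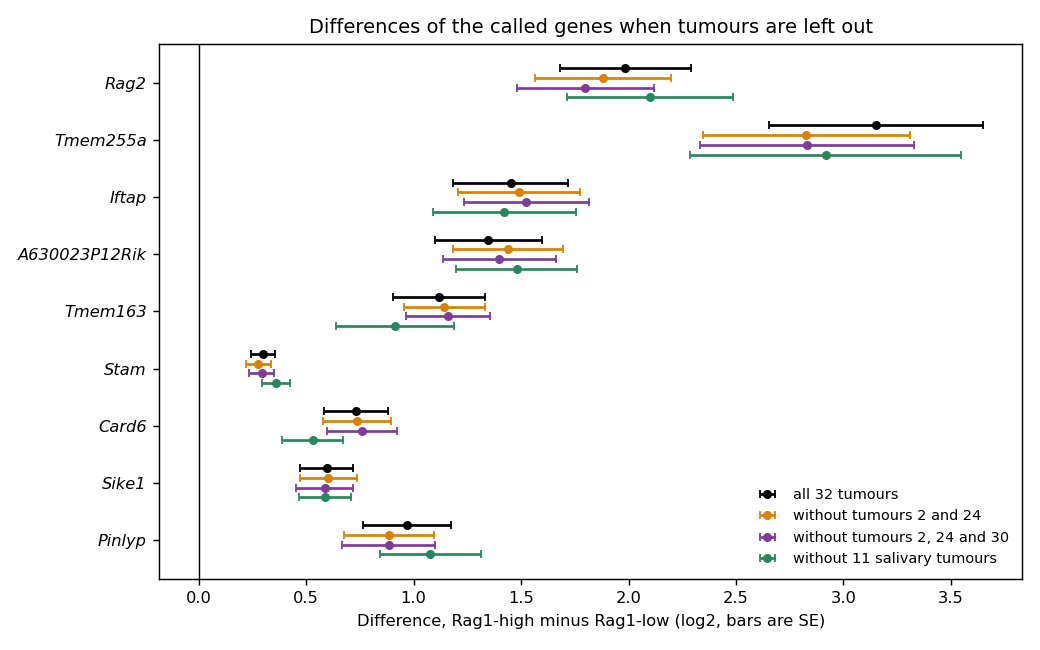
Difference of the 9 called genes, Rag1-high minus Rag1-low, on the log2 scale (points, with the SE as bars), over all 32 tumours (black), without tumours 2 and 24 (orange), without tumours 2, 24 and 30 (purple) and without the 11 tumours with salivary gland transcripts (green). All 9 differences were above 0 in each of the 4 fits, and that of Rag2 lay between 1.80 and 2.10.

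Without the 11 tumours that held salivary gland transcripts, 21 tumours were left and 0 genes passed in limma, with 633 higher (5.64%) and 363 lower (3.23%) at an unadjusted p under 0.05. The differences of the 9 genes kept their direction and each had an unadjusted p under 0.05. Their adjusted p ran from 0.123 to 0.342, and the Rag2 difference was 2.10 ± 0.387. With the salivary transcripts as a factor over all 32 tumours, 8 of the 9 calls remained. With Xist as a factor, calls remained for Rag2 (1.89 ± 0.313, adjusted p = 0.00585) and Tmem255a, and the other 7 had adjusted p-values up to 0.0977 in limma.

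Rag1 was also entered as a continuous level, since the tumours formed no separate classes. In that fit 10 genes (0.0891%) rose and 3 (0.0267%) fell with Rag1. Per log2 unit of Rag1, Tmem255a rose by 0.58 ± 0.0857, Rag2 by 0.42 ± 0.0363, Iftap by 0.30 ± 0.0386, A630023P12Rik by 0.24 ± 0.0449 and Card6 by 0.14 ± 0.0243. The other risers were Tmem108 (0.22 ± 0.0472), Phxr4 (0.15 ± 0.0300), the mitochondrial deacylase gene Sirt5 (0.15 ± 0.0292), Csgalnact2 (0.11 ± 0.0240) and the pyruvate dehydrogenase subunit gene Pdha1 (0.06 ± 0.0114). The genes that fell were the actin-binding coronin gene Coro2b (-0.22 ± 0.0419), the phosphoinositide phosphatase gene Inpp5f (-0.10 ± 0.0201) and the nuclear receptor coactivator gene Ncoa1 (-0.10 ± 0.0209). Adjusted p-values in limma ran from 4.32e-09 for Rag2 to 0.0477 for Csgalnact2. Pinlyp, Sike1, Stam and Tmem163 were not called in this fit.

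As a description over the 32 tumours, the genes whose levels were most like that of Rag1 were Rag2 (r = 0.90), Iftap (0.81), Tmem255a (0.77), Card6 (0.73) and A630023P12Rik (0.69). The most opposite were Coro2b (-0.69), Septin2 (-0.66), Inpp5f (-0.66), Ncoa1 (-0.65) and Syt8 (-0.64). Coro2b ran from 5.36 through 5.94 to 7.65 in the Rag1-high and from 6.03 through 7.11 to 8.96 in the Rag1-low tumours. It differed by -1.13 ± 0.252, with an adjusted p of 0.0726 in limma.

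No other gene of the recombination machinery was called. Of the 16 tested genes of V(D)J recombination and end joining, Rag2 alone was called, and the median difference was -0.02 against -0.01 over all genes tested. Polm, a polymerase that fills ends during joining, came next, from 7.59 through 8.64 to 9.44 in the Rag1-high and from 6.17 through 8.06 to 10.02 in the Rag1-low tumours (0.57 ± 0.261, unadjusted p = 0.0354, adjusted p = 0.480 in limma). Prkdc, Xrcc5 and Xrcc6, the genes of the DNA-dependent protein kinase, differed by 0.13 ± 0.126, 0.10 ± 0.0890 and -0.37 ± 0.340, and the ligase gene Lig4 by -0.26 ± 0.277. Dntt, which adds bases without a template at the joins, had a dim probe set and was fitted without the filter. It ran from 4.60 through 4.94 to 9.0 in the Rag1-high and from 4.74 through 5.04 to 9.85 in the Rag1-low tumours, a difference of -0.42 ± 0.468. Most tumours of both classes were thus near its floor, with single high tumours on each side.

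Genes of the B cell stages at which Rag1 is known to be active were not called either. None of the 8 tested genes of the pre-B cell receptor list had an unadjusted p under 0.05, and their median difference was 0.16. Without tumours 2 and 24 that median was -0.02. Without the 11 tumours with salivary transcripts it was 0.31, with all 8 genes above 0, where 5767 of all 11227 genes were. Vpreb1, of the surrogate light chain, ran from 4.90 through 5.72 to 12.43 in the Rag1-high and from 5.12 through 5.84 to 11.41 in the Rag1-low tumours (0.21 ± 0.771), and Igll1, the other surrogate light chain gene tested, differed by -0.02 ± 0.622. Both classes thus held tumours with high and with low surrogate light chain. Among 13 early receptor and surface genes 1 was higher and 1 lower at an unadjusted p under 0.05, where 5.79% and 3.94% of all genes were. Their median difference was 0.05. Cd93, a marker of immature B cells, was the higher one, from 9.01 through 10.43 to 11.67 in the Rag1-high and from 7.16 through 9.22 to 10.52 in the Rag1-low tumours (1.03 ± 0.315, p = 0.00264, adjusted p = 0.253 in limma). Spn was the lower one (-0.37 ± 0.174, p = 0.0396, adjusted p = 0.492 in limma). Enpep had the largest difference of the list in size and was also lower (-1.17 ± 0.630, p = 0.0727, adjusted p = 0.568 in limma). Without the 11 tumours with salivary transcripts the median of this list was -0.16, with 4 of its 13 genes above 0. Il7r, the interleukin 7 receptor of pro-B cells, ran from 6.35 to 12.69 in the Rag1-high and from 5.93 to 11.32 in the Rag1-low tumours (-0.45 ± 0.559). The 9 precursor B cell factors, with Lef1 (-0.20 ± 0.584), Sox4 (0.33 ± 0.457) and Myb (0.19 ± 0.191) among them, had a median difference of 0.02 and none under an unadjusted p of 0.05.

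Regulators of Rag transcription, a list of 25 tested genes, had 4 higher and 2 lower members at an unadjusted p under 0.05, where 5.79% and 3.94% of all genes were, and none after adjustment. These shares of all genes are the background for the counts of the lists that follow. Their median difference was -0.01. Ebf1, which commits cells to the B lineage, ran from 8.37 through 9.58 to 10.66 in the Rag1-high and from 6.24 through 9.08 to 9.62 in the Rag1-low tumours (0.69 ± 0.244, p = 0.00817, adjusted p = 0.340 in limma). Of the Rag1-high tumours 8 were above every Rag1-low tumour in Ebf1. The lowest Rag1-low tumour in Ebf1, and also in Tcf3, was tumour 24, which is rich in T cell transcripts. Without tumours 2 and 24, 4 members of the list were higher and 3 lower at an unadjusted p under 0.05, where 6.49% and 5.51% of all genes were. Foxo1, which binds a Rag enhancer, differed by 0.44 ± 0.194 (p = 0.0293, adjusted p = 0.455 in limma), Tcf3, the E protein gene, by 0.29 ± 0.125 (p = 0.0261, adjusted p = 0.432) and Gadd45a by 0.40 ± 0.193 (p = 0.0481, adjusted p = 0.512). Gfi1b, a repressor of Rag transcription, differed by -0.65 ± 0.315 and reached 11.26 in tumour 29 while no Rag1-high tumour exceeded 6.47. The Ets factor gene Spib differed by -0.53 ± 0.216. Foxo3, Ikzf1, Pax5, Runx1 and Stat5a, further members of the list, differed by -0.06, -0.05, 0.07, -0.01 and -0.04.

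Immunoglobulin chains had 6 tested genes, with a median difference of -0.12. Iglv1, a lambda light chain variable gene, ran from 4.07 through 8.76 to 12.41 in the Rag1-high and from 4.72 through 6.48 to 9.23 in the Rag1-low tumours (1.93 ± 0.738, p = 0.0137, adjusted p = 0.391 in limma). In 8 Rag1-high tumours it was above every Rag1-low tumour, although tumour 31 of the Rag1-high class was the lowest of all. Ighm, the heavy chain of IgM, differed by 0.14 ± 0.268, and Igha and Jchain, both highest in the Rag1-low tumour 2, by -0.96 ± 0.760 and -0.57 ± 0.859.

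Mature B cell genes showed scattered differences, none of them called. Of 17 tested, 4 were higher and 1 was lower at an unadjusted p under 0.05, with a median difference of 0.25. Bank1, a scaffold of B cell receptor signalling, ran from 7.95 through 10.84 to 11.61 in the Rag1-high and from 6.46 through 9.54 to 11.20 in the Rag1-low tumours (1.44 ± 0.474, p = 0.00462, adjusted p = 0.304 in limma). Cd55, which limits complement, differed by 0.86 ± 0.246 (p = 0.00144, adjusted p = 0.217), Cd22 by 0.44 and Cd37 by 0.25, and Tnfrsf13c, the BAFF receptor gene, by -0.74. The mature marker Ms4a1 overlapped fully (0.30 ± 0.601). All 9 tested MHC class II genes had a higher mean in the Rag1-high class, where 5392 of all 11227 genes tested had. The median of the MHC class II list was 0.29, and 1 of its genes had an unadjusted p under 0.05. H2-Ob, a part of the H2-O chaperone that restrains peptide loading in B cells, ran from 8.58 through 9.47 to 11.27 against 7.24 through 8.62 to 10.31 (0.97 ± 0.276, p = 0.0013, adjusted p = 0.217 in limma). Without tumours 2 and 24, which had the highest mean level of this list, its median was 0.59. In that fit 5 of the 9 were higher at an unadjusted p under 0.05, where 6.49% of all genes were. Without the 11 tumours with salivary transcripts the median was 0.12 for the MHC class II list and -0.10 for the mature B cell list. In that fit 7 of the 9 MHC class II genes were above 0, where 5767 of all 11227 genes were. Among 23 genes of B cell receptor signalling, 4 were higher and 1 was lower at that level, led by the kinase gene Blk (1.15 ± 0.408, p = 0.00833, adjusted p = 0.341 in limma).

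Plasma cell genes leaned the other way, with a median of -0.44 over 7 genes, of which 2 (Mzb1 at -0.52 ± 0.222 and Sdc1 at -0.82 ± 0.396) had an unadjusted p under 0.05. Without tumours 2 and 24 that median was 0.04. The median of the NF-kB list was 0.00 over 14 genes, with 0 higher and 1 lower at an unadjusted p under 0.05. Without the pair it was 0.21 with 5 higher, where 6.49% of all genes were higher. The p53 pathway list, with a median of 0.16 over 15 genes, had 4 higher and 0 lower at that level. Of the 15 genes 11 were above 0 and 4 below, among the latter Cdkn1a (-0.56, p = 0.0657, adjusted p = 0.552 in limma). Zmat3, a p53 target that binds RNA, ran from 6.21 through 8.43 to 10.66 against 6.36 through 7.39 to 9.72 (0.999 ± 0.395, p = 0.0165, adjusted p = 0.394 in limma), and Trp53inp1 differed by 0.46 ± 0.186.

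None of the growth and cell cycle genes was called. The 19 proliferation genes differed by -0.11 to 0.13, with none at an unadjusted p under 0.05. Of the 19 Myc targets, which differed by -0.27 to 0.14, 1 was lower at that level (Odc1, the first enzyme of polyamine synthesis, -0.27 ± 0.0875). The Myc network (10 genes), homing and adhesion genes (12), MHC class I and immunoproteasome genes (10), G1 cyclins, kinases and inhibitors (19), Bcl2 family (13), interferon-induced genes (13), oxidative phosphorylation (17), glycolysis (12) and reference genes (9) had medians between -0.08 and 0.01. The medians of the interferon-induced and MHC class I lists moved with the tumours used, to 0.21 and 0.15 without tumours 2 and 24, and to -0.17 and -0.19 without the 11 tumours with salivary transcripts. Although their medians were small, 16 of the 17 oxidative phosphorylation genes and 10 of the 12 glycolysis genes lay below 0, where 5835 of all 11227 genes did. Without the 11 tumours with salivary transcripts 5 of the 17 and 4 of the 12 were above 0, where 5767 of all 11227 genes were. The medians of these 2 lists were then -0.02 and -0.04. The 5 germinal centre genes had a median of -0.17, and 0.08 without tumours 2 and 24. Hk1, a hexokinase gene, ran from 6.30 through 7.41 to 8.62 in the Rag1-high and from 7.15 through 8.15 to 10.02 in the Rag1-low tumours (-0.75 ± 0.202, p = 0.000766, adjusted p = 0.188 in limma). Ccnd3, the cyclin D3 gene, differed by -0.55 ± 0.195 (p = 0.00785, adjusted p = 0.340), and the apoptosis gene Bmf by 0.77 ± 0.284 (p = 0.0106, adjusted p = 0.367).

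**Figure D4:**
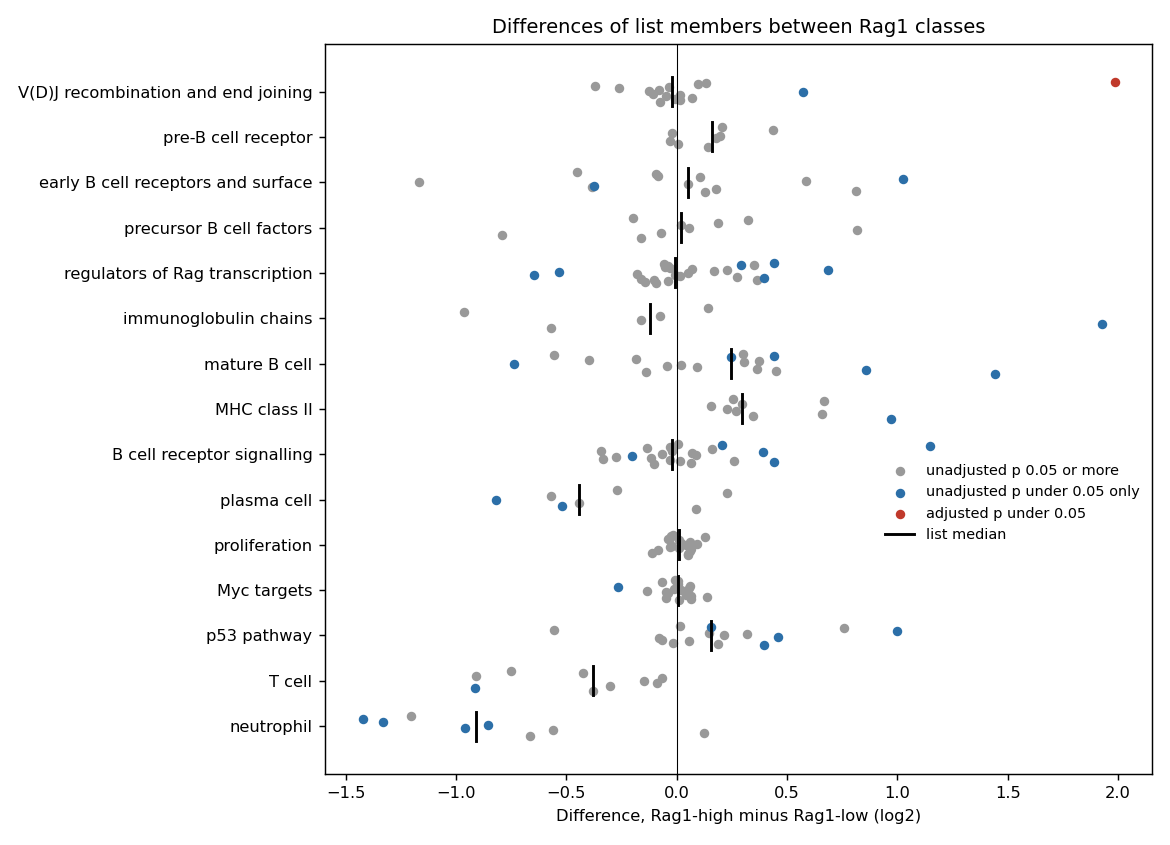
Difference of each tested gene of 15 lists, Rag1-high minus Rag1-low, on the log2 scale; each point is a gene, black bars are list medians, grey points had an unadjusted p of 0.05 or more, blue points an unadjusted p under 0.05 only and the red point, Rag2, an adjusted p under 0.05. Proliferation genes lay between -0.11 and 0.13, MHC class II genes all lay above 0 (median 0.29), and neutrophil genes had a median of -0.91.

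Markers of other cells were given for the same comparison. Of 8 tested neutrophil genes 7 had a difference below 0, where 5835 of all 11227 genes had. Of the 7, 4 had an unadjusted p under 0.05 and none passed after adjustment, and the median of the list was -0.91. The granule genes Ngp and Ltf differed by -1.33 ± 0.514 and -0.96 ± 0.361, and the list's mean level ran from 5.69 through 6.32 to 9.27 in the Rag1-high and from 5.44 through 7.48 to 9.50 in the Rag1-low tumours. The macrophage list had a median of 0.00 over 15 genes (mean level 9.20 to 10.83 and 8.95 to 12.08), the stroma list -0.05 over 13 genes (7.96 to 10.84 and 8.21 to 10.62) and the endothelial list 0.02 over 9 genes (6.66 to 7.96 and 6.58 to 8.15). NK cell genes (4 tested) had a median of -0.37, and 0.01 without tumours 2 and 24 and -0.90 without the 11 tumours with salivary transcripts. Thymocyte genes (6) had a median of 0.00, adipocyte genes (5) of -0.23 and salivary gland genes (10) of -0.66, and Epor, the 1 tested gene of the erythroid list, differed by -0.02. No marker of these lists was called. The part of these cells in the calls was not tested beyond the fits already given and 1 with the mean of the T cell, macrophage and stroma scores as a covariate, in which 7 of the 9 calls remained, all but Pinlyp and Sike1.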

How the data were processed

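Total RNA of 32 Eµ-myc lymphomas had been labelled with biotin by in vitro transcription and hybridised to Mouse430_2 arrays, 1 array per tumour, per the labels' protocols. What the authors deposited is 1 log2 value for each probe set and array, and the submitters' processing notes name RMA and affy. RMA corrects background, gives all arrays the same distribution and summarises probes, so a shift shared by most genes would be hidden. Not given in the sources used here are its version, its settings and any batches.

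The platform annotation gave 1 gene symbol for 34958 of 45101 probe sets, several for 932 and none for 9211. Genes were named from probe sets with 1 symbol, of which 34754 had an Entrez identifier in RefSeq (GRCm38.p6). Probe sets with a mean of at least 5.78, the median of all probe set means, were kept, with the brightest per gene, which left 11227 genes without Rag1. Differences are Rag1-high minus Rag1-low, fitted by lmFit and eBayes of limma 3.58.1 (R 4.3.3) with Benjamini-Hochberg adjustment, and a gene was called at an adjusted p under 0.05. Since the classes were set by a measured value, a call says that a gene's level went with the Rag1 class. A list is described by its counts and median difference, and its level in a tumour is the mean of its members. Permutations and summaries ran in scipy 1.17.1 and pandas 2.3.3, on numpy 2.4.6 and Python 3.11.15, with plots from matplotlib 3.10.9. In simulated data 200 of 11227 genes were changed. There limma recovered 62% of those changed by 0.5 and 93% of those changed by 1 on the log2 scale. Of the calls in the simulated data 6.06% were false. Whether these shares hold for the measured tumours was not tested. Over all 32 tumours Tmem163 was called at a difference of 1.12, while Bank1 at 1.44 and Egfl6 at -1.82 were not.

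The classes, the gene lists and the tests were chosen with earlier results of these data known. Named genes were up to 15 called genes in each direction, the tested members of the lists on recombination, pre-B receptor, early receptors, precursor factors, Rag regulators and immunoglobulin chains (in part by their counts), leading members of the other lists, the 3 nearest tested genes on each side of Rag1, and the 5 genes most and least like it. Genes called in another setting are named with that setting. Promoter windows came from RefSeq, and Card6 and Sike1 had no entry. Alternatives left out tumours, replaced the classes by the Rag1 level, or changed probe sets, filter, scaling, covariates or test.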

Additional observations from a re-analysis of the deposited data

How the results depend on the processing

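The 9 genes called higher became 18 without tumours 2 and 24, 44 without tumours 2, 24 and 30, 4 with the filter at the 75th percentile (which removes Rag2 from the test), 2 with Xist as a factor and 0 without the 11 tumours with salivary transcripts, where the Rag2 difference of 2.10 no longer passed. Other alternatives gave 6 to 10. The count of 0 lower became 4 without tumours 2 and 24, 28 without tumours 2, 24 and 30, 3 with Rag1 as a continuous level, 1 with all probe sets of a gene averaged and 1 with the rank-sum test. Leaving out each tumour in turn gave 6 to 14 higher and 0 to 3 lower genes, a Rag2 difference of 1.83 to 2.08 and 2 to 3 relations within classes. The 14 came without tumour 4, and lower genes appeared without tumour 1, 2, 4, 7, 12, 30, 31 or 32. Rag2, Tmem255a, Iftap, A630023P12Rik, Tmem163 and Stam passed in all 32 of these fits, while Card6 was lost in 15, Sike1 in 19 and Pinlyp in 21. No called result changed sign. The 8 other called genes kept their direction in all 116 comparisons under the other alternatives, each of 1 gene in 1 setting, and lost their call in 34. For the 158 named genes that were not called, the sign turned in 98 of 2319 such comparisons and a call was gained in 43. The cause of these shifts was not tested. No paired analysis was possible because the labels give 1 group. Depth is not defined for arrays, and their number limits precision.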
